A study of Mus musculus with 8 samples.

Results

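Interferon-inducible genes let liver cells hold off intracellular microbes and call in lymphocytes, and 9 of them are described here: the immunity-related GTPases Irgm1, Irgm2 and Igtp, the guanylate-binding proteins Gbp2, Gbp3 and Gbp6, the transcription factors Irf1 and Irf7, and the chemokine gene Cxcl10. They were chosen by name from the annotation of the array. Of the 9, 5 (Irgm1, Gbp3, Irf1, Irf7 and Cxcl10) had a probe set that named that gene alone, among 19935 genes tested. The other 4 were read only by 3 probe sets that named several genes at once, whose signal cannot be assigned to 1 gene and which are described apart.

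RNA came from livers of male C57Bl/6 mice aged 10 to 12 weeks, on normal chow with 12 h of light and 12 h of dark, taken at zeitgeber time 10. In the NS-DADm group (4 arrays) the corepressors NCOR and SMRT both carried a mutation of the deacetylase-activating domain (DAD), through which they switch on the histone deacetylase HDAC3. The WT group (4 arrays) was wild type, and no agent was given to either group according to the labels. A growth note shared by all samples speaks of wild-type mice, so the genotypes rest on each sample's own label. Which cells carried the mutations is not stated, and neither is whether the arrays stand for different animals. The p-values therefore describe the spread over these 8 arrays, part of which may be technical. Transcripts of the corepressors themselves were not analysed here.

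In the interferon response, interferon-gamma and the type I interferons bind their receptors, JAK kinases become active, and STAT and IRF proteins move to promoters. STAT dimers bind a short element called GAS, and the complex of STAT and IRF9 binds the interferon-stimulated response element (ISRE). In mouse cells the Irgm proteins control the effector immunity-related GTPases, guanylate-binding proteins coat vacuoles that hold microbes, IRF1 carries the interferon-gamma signal on to later genes, IRF7 amplifies type I interferon, and CXCL10 draws T cells through the receptor CXCR3. NCOR and SMRT are known to hold down inflammatory genes in macrophages.

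The promoters show which of these elements the genes carry close to their start, and are given because the Irgm probe sets were those whose groups did not overlap in the comparison that follows. Windows were the 250 bases before the annotated start, the first listed where a gene had several. Gbp3 and Irf1 each had 2 starts listed, of which 1 was read, and Gbp6 had no window. ISRE letters (GAAANNGAAA, or TTTCNNTTTC on the other strand) occurred in 6 of the 8 genes with a window, against 3.04% of 27025 windows of that length. GAS letters (TTCNNNGAA, which reads alike on both strands) occurred in 3 of the 8, against 7.18% of those windows. Sequences are from RefSeq on GRCm38.p6, written 5′ to 3′ on the strand of the gene, with matches to either element in capitals. The first is Irgm1 (chr11:48871421-48871475, minus strand), where 2 ISRE matches overlap. Irgm2 (chr11:58214877-58214947, plus strand) and Igtp (chr11:58199486-58199555, plus strand) each have a GAS match followed by an ISRE match. Gbp3 (chr3:142559974-142560039, plus strand) has 2 overlapping ISRE matches, Cxcl10 (chr5:92349068-92349127, minus strand) has 1, and Irf1 (chr11:53769899-53769957, plus strand) has 1 GAS match.
Irgm1: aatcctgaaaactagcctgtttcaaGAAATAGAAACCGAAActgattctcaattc
Irgm2: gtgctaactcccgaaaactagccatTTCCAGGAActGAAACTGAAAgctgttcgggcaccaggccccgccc
Igtp: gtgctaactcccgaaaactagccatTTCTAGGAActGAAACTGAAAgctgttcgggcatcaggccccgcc
Gbp3: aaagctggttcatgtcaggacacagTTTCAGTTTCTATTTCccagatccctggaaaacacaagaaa
Cxcl10: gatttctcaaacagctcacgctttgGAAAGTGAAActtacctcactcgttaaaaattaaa
Irf1: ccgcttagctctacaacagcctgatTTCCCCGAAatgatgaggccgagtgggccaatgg

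Gbp2 had 1 ISRE match, and the Irf7 window held neither set of letters, which says only that they are not in this window. Igtp and Irgm2 are next to each other on chromosome 11, and their windows shared an identical run of 55 bases, against 11 bases between Irgm1 and either of them. A match is a description of the letters and no evidence that a factor bound there.

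The comparison asked whether these genes differed between livers of the group with the DAD of both corepressors mutated and WT livers. None of the 5 genes with their own probe set passed the test (limma, Benjamini-Hochberg adjusted p under 0.05 over all genes), where 0.271% of all genes did. At an unadjusted p under 0.05 there were 2 of the 5, Irgm1 and Cxcl10, both higher, against 9.33% of all genes in either direction. Of the 5, 4 had values above 0 and 1, Irf7, had a value below 0, with a median log2 fold change of 0.24, or 0.12 without NS-DADm replicate 4. Over all genes 44.3% were above 0, and the median was -0.01.

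Irgm1 encodes a regulatory GTPase that acts on autophagy and on the effector GTPases of its family. Its log2 intensity was 10.01, 9.73, 10.01 and 9.99 on NS-DADm arrays 1 to 4, against 9.36, 9.48, 9.66 and 9.42 on WT arrays 1 to 4. Values of other genes are given in the same order of arrays. All 4 NS-DADm arrays lay above all 4 WT arrays, a separation seen upward in 1.8% of all genes. The means were 9.94 ± 0.14 in NS-DADm and 9.48 ± 0.13 in WT livers (SD, n = 4 arrays each). The ratio was 1.37-fold, or 0.45 on the log2 scale (SE 0.0843), with a 95% confidence interval of 0.27 to 0.64. The adjusted p was 0.0665 in limma's test, just short of the threshold. Without NS-DADm replicate 2, the lowest of its group, the log2 fold change was 0.52 and the adjusted p 0.0447. This was the 1 array whose removal brought a call. Adjusted over all probe sets of the table instead of over genes, limma's adjusted p without that array was 0.0741, which is no call.

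Irgm2 and Igtp (also called Irgm3) encode the other regulatory GTPases and share a probe set. Its log2 intensity was 9.54, 9.65, 9.94 and 10.25 in NS-DADm livers, against 9.14, 9.22, 9.40 and 9.45 in WT livers. Again no NS-DADm array fell to the level of a WT array, and NS-DADm replicate 4 was the highest. The log2 fold change of this joint signal was 0.54 (SE 0.142, 95% confidence interval 0.23 to 0.86), with an adjusted p of 0.249 over all probe sets of the table.

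Among the other GTPases of the family, 4 of 11 listed were measured and none passed the test, and their median log2 fold change was 0.18. Iigp1, an effector that attacks the vacuole membrane around microbes, had 12.12, 11.85, 12.03 and 11.89 in NS-DADm livers, against 11.61, 11.53, 11.72 and 11.79 in WT livers. Gm12250 (synonym Irgb10), which lies beside Igtp, had 7.41, 7.38, 7.64 and 8.01 in NS-DADm livers, against 7.09, 7.32, 7.22 and 7.17 in WT livers. In both, the 4 NS-DADm arrays lay above the 4 WT arrays. The log2 fold change was 0.31 for Iigp1 (SE 0.0786, adjusted p = 0.195) and 0.41 for Gm12250 (SE 0.123, adjusted p = 0.291). Irgq and Irgc1, relatives that are not known as interferon-induced, were at 0.06 and -0.01.

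**Figure D1:**
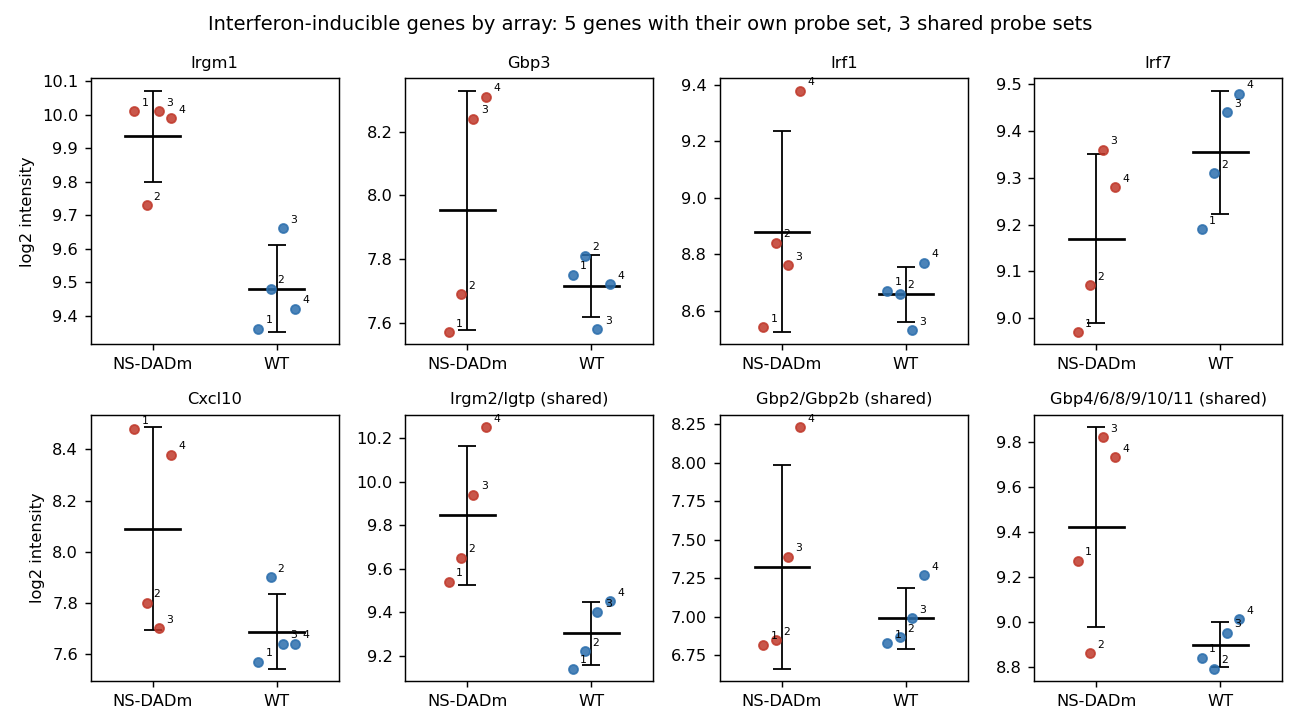
Log2 intensity (vertical axis, a separate range in each panel, not starting at 0) of the 5 genes with their own probe set and the 3 shared probe sets, in NS-DADm livers (red) and WT livers (blue). Points are single arrays with their replicate number, and bars are means ± SD over 4 arrays; only Irgm1 and the Irgm2/Igtp probe set have groups that do not overlap.

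Among the guanylate-binding proteins, the SD of Gbp3 was 0.38 in NS-DADm and 0.10 in WT livers, a difference in spread that was not tested. Gbp3 had 7.57, 7.69, 8.24 and 8.31 in NS-DADm livers, against 7.75, 7.81, 7.58 and 7.72 in WT livers. NS-DADm replicates 3 and 4 lay above every WT array, whereas replicates 1 and 2 lay within or below the WT range. The log2 fold change was 0.24 (SE 0.153, adjusted p = 0.718), and leaving out NS-DADm replicate 1, 3 or 4 gave 0.37, 0.15 or 0.12.

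Gbp6 was read only by a probe set that names it with Gbp4, Gbp8, Gbp9, Gbp10 and Gbp11, neighbours and close relatives. That signal was 9.27, 8.86, 9.82 and 9.73 in NS-DADm livers, against 8.84, 8.79, 8.95 and 9.01 in WT livers, 0.52 higher on the log2 scale (SE 0.181, adjusted p = 0.428). Replicates 1, 3 and 4 of NS-DADm were above all WT arrays and replicate 2 was among them. Gbp2, a target of interferon-gamma that coats microbial vacuoles, shared its probe set with Gbp2b. This joint signal was 6.82, 6.85, 7.39 and 8.23 in NS-DADm livers, against 6.83, 6.87, 6.99 and 7.27 in WT livers. The log2 fold change of 0.33 (SE 0.27, adjusted p = 0.842) rested on 1 array, since it was 0.03 without NS-DADm replicate 4.

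Of 8 further guanylate-binding protein genes 7 were measured, and 0 passed the test, with 6 above 0 and a median log2 fold change of 0.27 (0.16 without NS-DADm replicate 3 or 4). The 1 below 0 was Gbp2b, whose own probe set was at -0.13 (adjusted p = 0.911). At an unadjusted p under 0.05 there were 2 of the 7, Gbp7 and Gbp11, both higher, where 3.72% of all genes were higher at that level. Gbp7 had 9.10, 8.87, 9.16 and 9.23 in NS-DADm livers, against 8.59, 8.95, 8.82 and 8.88 in WT livers (log2 fold change 0.28, adjusted p = 0.349). Its NS-DADm replicates 1, 3 and 4 were above all WT arrays, and its SD was 0.15 in both groups. Gbp11 had 8.54, 7.88, 9.03 and 7.71 in NS-DADm livers, against 7.66, 7.66, 7.37 and 7.71 in WT livers (log2 fold change 0.69, adjusted p = 0.382). Its lowest NS-DADm array and its highest WT array were equal to 2 decimals, and the log2 fold change was 0.44 without NS-DADm replicate 3. Gbp4 had 7.17, 7.34, 7.94 and 8.40 in NS-DADm livers, against 7.14, 7.25, 7.40 and 7.41 in WT livers (0.41, adjusted p = 0.63, and 0.18 in log2 fold change without NS-DADm replicate 4). As in Gbp3, NS-DADm replicates 3 and 4 of Gbp4 were the highest arrays. These genes are close copies, so the share of each in a probe set's signal is uncertain.

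**Figure D2:**
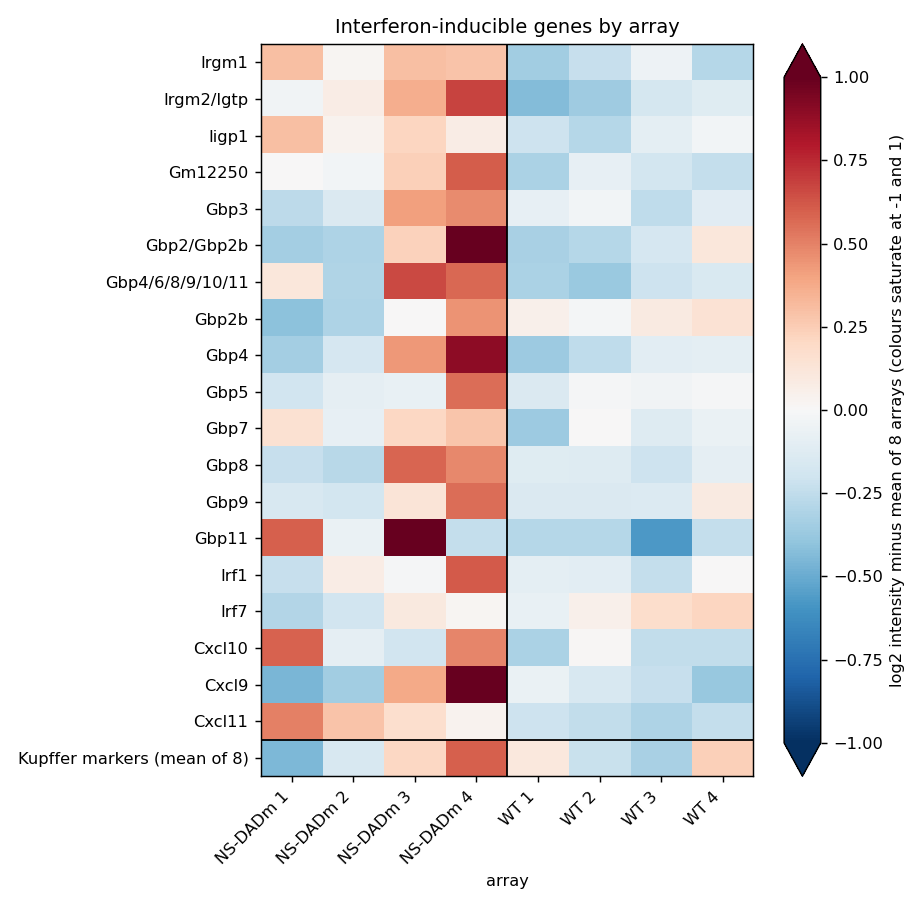
Log2 intensity minus the mean of the 8 arrays (colour, red above and blue below the mean, saturating at -1 and 1) for the immunity-related GTPases, guanylate-binding proteins, Irf1, Irf7 and chemokines, with the mean of 8 Kupffer cell markers in the bottom row. Columns are the 4 NS-DADm and then the 4 WT arrays; the red cells of the guanylate-binding proteins lie mostly in NS-DADm replicates 3 and 4.

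Irf1 encodes the transcription factor that interferon-gamma induces early. It had 8.54, 8.84, 8.76 and 9.38 in NS-DADm livers, against 8.67, 8.66, 8.53 and 8.77 in WT livers. The groups overlapped, and only NS-DADm replicates 2 and 4 were above all WT arrays. The log2 fold change was 0.22 (SE 0.146, adjusted p = 0.734), but 0.06 without NS-DADm replicate 4 and 0.33 without replicate 1. A second, dimmer probe set of Irf1 disagreed, at 7.47, 7.49, 7.47 and 7.45 in NS-DADm livers, against 7.69, 7.53, 7.50 and 7.37 in WT livers (log2 fold change -0.05), and the mean of both probe sets gave 0.08.

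Irf7, the factor that amplifies type I interferon, ran the other way. It had 8.97, 9.07, 9.36 and 9.28 in NS-DADm livers, against 9.19, 9.31, 9.44 and 9.48 in WT livers. NS-DADm replicates 1 and 2 lay below all WT arrays, and replicates 3 and 4 lay within the WT range. The means were 9.17 ± 0.18 in NS-DADm and 9.36 ± 0.13 in WT livers (SD, n = 4 each), which put Irf7 at -0.19 (SE 0.0959, 95% confidence interval -0.40 to 0.03, adjusted p = 0.602). Leaving out NS-DADm replicate 1 gave -0.12. Of 6 measured other IRF genes none passed the test, at a median of 0.03. Irf5 was at 0.13 (adjusted p = 0.572) and Irf8, a factor of macrophage and dendritic cell lineages, was at 0.10 (adjusted p = 0.785). Leaving out NS-DADm replicate 4 gave Irf8 0.04, and leaving out replicate 2 gave 0.15.

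Cxcl10 had 8.48, 7.80, 7.70 and 8.38 in NS-DADm livers, against 7.57, 7.90, 7.64 and 7.64 in WT livers. NS-DADm replicates 1 and 4 lay above every WT array, and replicates 2 and 3 lay within the WT range. The means were 8.09 ± 0.40 in NS-DADm and 7.69 ± 0.14 in WT livers (SD, n = 4 each), 1.32-fold (log2 fold change 0.40, SE 0.166, adjusted p = 0.472). Leaving out 1 array gave 0.27 to 0.53, with 0.27 reached without NS-DADm replicate 1.

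A list of the CXCR3 ligands, their receptor and other chemokines held 10 genes, all measured, with 0 past the test and a median log2 fold change of 0.19, or 0.08 without NS-DADm replicate 4. At an unadjusted p under 0.05 there were 2 of the 10, Cxcl11 and Ccl2, both higher, against 3.72% of all genes. Cxcl11 lies next to Cxcl10 on chromosome 5, and RefSeq classes it as a transcribed pseudogene in C57BL/6J. It had 8.28, 8.06, 7.94 and 7.81 in NS-DADm livers, against 7.57, 7.53, 7.47 and 7.54 in WT livers, so all NS-DADm arrays were above all WT arrays. The log2 fold change was 0.49 (SE 0.0891, 95% confidence interval 0.30 to 0.69), and the adjusted p of 0.0611 missed the threshold. The adjusted p was 0.0153 without NS-DADm replicate 4 and 0.047, 0.0282 and 0.0373 with trended and robust variances, array weights and the replicate number as a block. Over all 17 alternatives it ran from 0.0153 to 0.23.

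Cxcl9, the third CXCR3 ligand gene, had another order of arrays. It had 9.14, 9.25, 9.98 and 10.85 in NS-DADm livers, against 9.53, 9.44, 9.37 and 9.22 in WT livers (log2 fold change 0.42, adjusted p = 0.786). Leaving out NS-DADm replicate 4 took its log2 fold change to 0.07, and leaving out replicate 1 to 0.64. Its NS-DADm replicates 3 and 4 were above all WT arrays, whereas Cxcl11 was highest in NS-DADm replicates 1 and 2. The receptor gene Cxcr3 was at -0.10 (adjusted p = 0.902), and the T cell chemokine gene Ccl5 was at 0.33 (adjusted p = 0.79), with its highest value, 9.14, in NS-DADm replicate 4 and 0.03 in log2 fold change without that array. Ccl2, which draws monocytes, had 7.52, 7.57, 7.11 and 7.25 in NS-DADm livers, against 7.05, 7.12, 7.18 and 7.05 in WT livers (log2 fold change 0.27, adjusted p = 0.399). Its NS-DADm replicate 3 lay within the WT range and the other NS-DADm arrays above it.

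**Figure D3:**
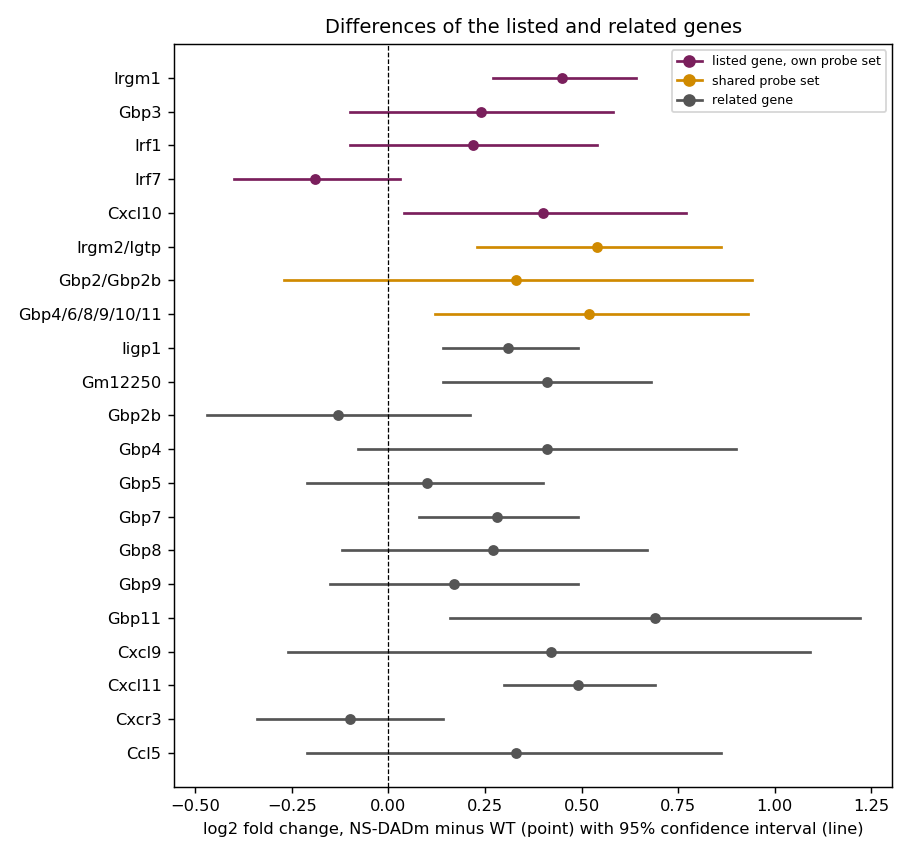
Log2 fold change of NS-DADm minus WT (horizontal axis, points) with 95% confidence intervals from limma (lines, not adjusted for the number of genes) for the genes with their own probe set, the shared probe sets, and related GTPase and chemokine genes. The intervals of Irgm1 (0.27 to 0.64), Irgm2/Igtp (0.23 to 0.86) and Cxcl11 (0.30 to 0.69) lie above 0. So do those of Cxcl10 (0.04 to 0.77), the probe set that names Gbp6, Iigp1, Gm12250, Gbp7 and Gbp11. The remaining intervals, among them that of Irf7 (-0.40 to 0.03), span 0.

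The pathway upstream of these genes had no member past the test. Of 11 interferon and receptor genes, Ifngr2, a chain of the interferon-gamma receptor, had 11.18, 11.21, 11.01 and 11.19 in NS-DADm livers, against 10.94, 10.93, 10.85 and 10.94 in WT livers (log2 fold change 0.23, adjusted p = 0.196). All 4 NS-DADm arrays of Ifngr2 were above the WT arrays. Il18, a cytokine that induces interferon-gamma, was at 0.20 (adjusted p = 0.442). Ifng itself was at -0.05 (adjusted p = 0.925), with 6.88 to 7.09 in NS-DADm and 6.97 to 7.14 in WT livers.

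Of 10 measured JAK-STAT genes, Stat3 was at 0.31 (adjusted p = 0.33) and the phosphatase gene Ptpn2 at 0.28 (adjusted p = 0.665). Among 15 measured sensor and adaptor genes, the kinase genes Ikbke and Tbk1, which activate IRF3 and IRF7, were at 0.28 and 0.22 (adjusted p = 0.652 and 0.365). Without NS-DADm replicate 1 the log2 fold change was 0.14 for Ptpn2 and 0.13 for Ikbke, and without WT replicate 1 that of Ptpn2 was 0.14. The medians of these lists were 0.05 for interferons and receptors, 0.04 for JAK-STAT genes and 0.07 for sensors.

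Among downstream genes, 23 type I interferon-induced antiviral genes had a median of 0.05 and 0 past the test, with 4 higher and 0 lower at an unadjusted p under 0.05, where 3.72% of all genes were higher and 5.6% lower. The nucleic acid sensor gene Zbp1 was at 0.28 (adjusted p = 0.261) and the ubiquitin ligase gene Herc6 at 0.26 (adjusted p = 0.345). Of 17 measured antigen presentation genes 0 passed the test, and the median was 0.05, or -0.01 without NS-DADm replicate 4. The immunoproteasome genes Psmb10 and Psmb8 were at 0.31 (adjusted p = 0.187) and 0.22 (adjusted p = 0.602), and Psmb8 was at 0.13 without NS-DADm replicate 4.

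Over all 9 pathway lists, 0 of 103 measured genes passed limma's test. At an unadjusted p under 0.05, 16 were higher and 1 was lower in NS-DADm livers, against 3.72% of all genes higher and 5.6% lower. Groups did not overlap in 10 of the 103, all higher, against 1.8% of all genes upward and 3.83% downward. The median over the 103 genes was 0.07. The lists were chosen with earlier results of these data known and hold close copies, so these counts are a description. Of the 10, the immunity-related GTPases gave 2, the antiviral list 2 and antigen presentation 2.

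**Figure D4:**
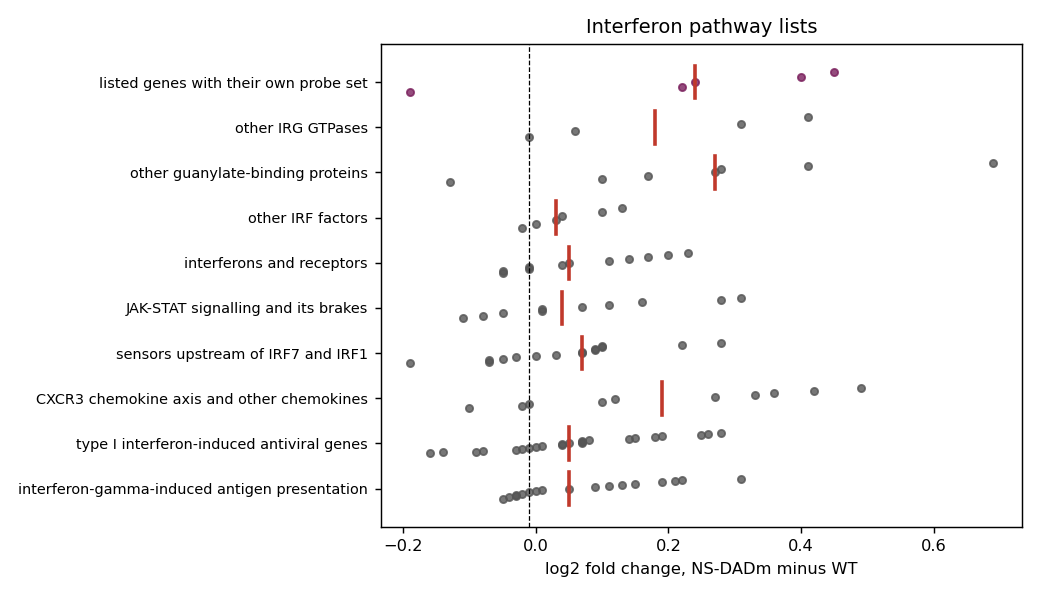
Log2 fold change of NS-DADm minus WT (horizontal axis) of each measured gene (points) in the 9 pathway lists and among the 5 genes with their own probe set. Red bars are list medians and the dashed line is the median of all genes (-0.01); medians run from 0.03 for other IRF factors to 0.27 for other guanylate-binding proteins.

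Marker lists of liver cell types were measured on the same arrays. In whole liver, fewer cells of a type and less RNA per cell cannot be told apart. The mean log2 level of 8 Kupffer cell markers, the resident macrophages of liver, was 8.55, 8.84, 9.21 and 9.60 in NS-DADm livers, against 9.11, 8.78, 8.68 and 9.24 in WT livers. None of the 8 passed the test, and their median log2 fold change was 0.10, or -0.11 without NS-DADm replicate 4. Within NS-DADm their mean was lowest in replicate 1 and highest in replicate 4. So were Gbp3, Irf1 and the Irgm2/Igtp and Gbp2/Gbp2b probe sets, and, outside the 9 genes, Gbp4 and Cxcl9. These extremes are not particular to Kupffer cells. The endothelial mean was 9.11, 9.37, 9.36 and 9.70 in NS-DADm livers, and the stellate cell mean 8.67, 8.93, 8.98 and 9.41. Means of the monocyte, T and NK cell, B cell and hepatocyte markers were also lowest in replicate 1 and highest in replicate 4. The class II gene H2-Aa, a marker of antigen-presenting cells, likewise had 8.19, 8.80, 9.47 and 10.72 in NS-DADm livers, against 9.27, 9.11, 9.16 and 9.77 in WT livers. Means of the neutrophil, plasmacytoid dendritic cell, cholangiocyte and red blood cell markers were not lowest in replicate 1. Irgm1, Cxcl10 and the probe set that names Gbp6, like Iigp1 and Cxcl11, were not lowest in replicate 1 either. Irf7 was lowest there but highest in replicate 3.

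The mean of 9 T and NK cell markers was 6.41 to 6.64 in NS-DADm and 6.33 to 6.55 in WT livers, and 0 of the 9 passed the test. That of 6 neutrophil markers was 6.43 to 6.58 in NS-DADm and 6.28 to 6.47 in WT livers. Of these 6, 0 passed the test, and 6 of 6 log2 fold changes were above 0, against 44.3% of all genes. Of 3 measured monocyte markers 0 passed the test. Ccr2 at 0.14 (adjusted p = 0.454) and Itgam at 0.19 (adjusted p = 0.427) had every NS-DADm array above every WT array, and Lyz2 was at -0.12. That separation was seen upward in 1.8% of all genes. Ccr2 was dim, at means of 5.46 in NS-DADm and 5.32 in WT livers, below the 25th percentile of gene means (6.46). Itgam, at 6.75 and 6.57, was a little above it. The mean of these 3 monocyte markers was 7.12 to 7.56 in NS-DADm and 7.09 to 7.44 in WT livers.

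Of the endothelial, stellate cell, red blood cell and hepatocyte markers 0 passed the test. The mean of 8 sinusoidal endothelial markers was 9.11 to 9.70 in NS-DADm and 9.55 to 9.75 in WT livers. All 8 had log2 fold changes below 0, where 44.3% of all genes were above 0. Their median was -0.28, or -0.20 without NS-DADm replicate 1 and -0.38 without replicate 4. At an unadjusted p under 0.05, 6 of the 8 were lower, against 5.6% of all genes. The mean of 6 stellate cell markers was 8.67 to 9.41 in NS-DADm and 9.11 to 9.38 in WT livers. Of these log2 fold changes 6 of 6 were below 0. Their median was -0.20, or -0.06 without NS-DADm replicate 1 and -0.38 without replicate 4. Of 3 listed red blood cell markers only 1 was measured, Alas2, the heme synthesis enzyme of red blood cell precursors. It was at -0.51 (adjusted p = 0.0707), with every NS-DADm array below every WT array. That separation was seen downward in 3.83% of all genes. The 6 measured hepatocyte markers averaged 13.54 to 13.60 in NS-DADm and 13.59 to 13.60 in WT livers, at a median log2 fold change of 0.00. Among them Alb and Apoa1 were at 0.01, and Tat, an enzyme of tyrosine breakdown, was at -0.20 (adjusted p = 0.427), with every NS-DADm array below every WT array. The scale has no zero, so no marker can be called absent, and the part of these cell types in the results was not tested.

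The genes most like the 5 were found by Pearson correlation over the 8 arrays with the mean of their centred values. That mean was 0.02, -0.07, 0.12 and 0.38 in NS-DADm livers, against -0.18, -0.06, -0.12 and -0.09 in WT livers. The 6 most alike, leaving out predicted and clone names, were Lepr (r = 0.98), Impg2 (0.97), and Agbl3, Slc22a26, Serpina11 and Acta2 (each 0.96). Lepr, the leptin receptor gene, had 7.75, 7.55, 8.20 and 9.30 in NS-DADm livers, against 6.86, 7.03, 7.21 and 7.18 in WT livers (log2 fold change 1.13, adjusted p = 0.222). These correlations share the arrays, are led by NS-DADm replicate 4 and were the highest of all genes by choice, so they are a description. Among the 5 genes themselves, r ran from -0.56 for Irf7 with Cxcl10 to 0.77 for Gbp3 with Irf1.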

How the data were processed

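The deposited table held log2 intensities of 28270 probe sets on 8 Affymetrix arrays, 1 array per sample. Per the submitters' processing notes, the authors used RMA and Partek, with no version, setting or order stated. Values ran from 3.43 to 14.37, from which the log2 scale was inferred. RMA compresses small differences at low intensity. Array medians ran from 7.39 to 7.50. Any pair of arrays had a Pearson r between 0.993 and 0.998. No depth, batch or detection call was given, so the number of arrays limits the precision.

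Symbols were updated by Entrez Gene identifier through RefSeq on GRCm38.p6. Of the probe sets 21780 named 1 gene, 1617 several and 4873 none. Each gene took its single-gene probe set with the highest mean. The NS-DADm minus WT difference was fitted in limma 3.58.1 under R 4.3.3 (lmFit and eBayes, two-sided, Benjamini-Hochberg over 19935 genes, threshold 0.05), without a filter or pseudocount. Shared probe sets were fitted and adjusted over all probe sets. Errors are SDs, and SEs come from the fit (median 0.07). The steps were tested on simulated data. Named were the 9 genes, called genes of each pathway list or else its 2 largest values, and the 6 most alike genes. Other genes (Irgq, Irgc1, Ifng, Gbp2b, Gbp7, Cxcr3, Ccl2, Ccl5, H2-Aa and the single cell type markers) were named after their values were seen. Of 120 listed pathway genes 17 were not analysed here. The genes and lists were chosen with earlier results of these data known. Python 3.11.15 made the figures. Alternatives covered probe set choice, filters, normalization, variances, weights, the replicate block and each array left out.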

Additional observations from a re-analysis of the deposited data

Results flagged for a closer look

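In Irgm1, NS-DADm replicate 2 (9.73) stood below the other NS-DADm arrays, which lay within 9.99 to 10.01, and was still above the highest WT array (9.66). The gap was 0.93 of the group's range, past Dixon's 95% critical value for 4 samples. Of 18 groups of 4 arrays checked this was the 1 that passed, and chance flags about 5% of groups.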

How the results depend on the processing

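No log2 fold change of the 5 genes changed sign under the 9 processing alternatives or when 1 array was left out. Among the processing alternatives, only averaging probe sets, the normalizations and the array weights could have changed a sign. Filters, variance settings, the replicate block and the fit of all single-gene probe sets leave a gene's log2 fold change as it is. The second probe set of Irf1, at -0.05, was not counted among the 5. No processing alternative called any of the 5, nor did the fit with shared probe sets counted (0 of 8), which was chosen after seeing the data. Leaving out 1 array gave 0 to 1 called with the adjustment over genes, and 1 came without NS-DADm replicate 2 (Irgm1). Over the processing alternatives the adjusted p of Irgm1 was 0.0518 to 0.112, and over arrays left out 0.0447 to 0.246. The pathway genes called were 1, Cxcl11, with trended and robust variances, array weights and the replicate block, and 0 to 1 when 1 array was left out. Over all genes 54 were called, 109 with array weights, 105 with the replicate block and 13 to 126 when 1 array was left out (13 without WT replicate 2, 22 without WT replicate 3, 31 and 35 without NS-DADm replicates 2 and 3, 126 without NS-DADm replicate 4). With 1 array left out, list medians ran from 0.02 to 0.09 for antiviral genes, from -0.01 to 0.13 for antigen presentation and from 0.08 to 0.25 for chemokines. The causes were not tested. Deviations of same-numbered arrays correlated at r = 0.15, 0.05, -0.1 and 0.25 across genes for replicates 1 to 4. The WT array most like the NS-DADm array had the same number for replicates 1 and 4, but not for 2 and 3. Whether the numbers pair the samples is therefore not settled.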
